A study of Ovis aries with 18 samples.

Results

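Cytosolic ribosomal proteins were examined for allelic imbalance (AI), an unequal number of RNA-Seq reads from the reference and the alternate allele of a single nucleotide polymorphism (SNP) in a heterozygous animal. The members were all autosomal SNPs whose gene symbol began with RPL, RPS or RPLP and a digit or with RPSA, without the RPS6K kinases. This rule took 59 of the 24355 SNPs in the table and 23 of its 5810 gene symbols. The large subunit held 33 SNPs of 12 symbols and the small subunit 23 SNPs of 10 symbols. The remaining 3 SNPs were those of RPS19BP1, whose product binds RPS19 but is not itself a ribosomal protein, so 56 SNPs of 22 symbols were ribosomal proteins. The perirenal adipose tissue (PRAT) came from 18 singleton sheep fetuses, 16 female and 2 male, collected at 132 days of gestation from untreated ewes on a maintenance diet. The fetuses had 1 sire and unrelated dams, so they were separate animals of a single condition and no groups were compared. Genotypes were called from the same RNA reads as the counts.

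Each ribosome is built from a large subunit, which joins amino acids, and a small subunit, which reads the mRNA, with most ribosomal proteins present as a single copy in each. Their mRNAs are abundant in every cell, adipocytes included, and are regulated together to keep subunits balanced. Mammalian genomes also carry many processed pseudogenes of these genes, which are intronless and nearly identical copies of their mRNAs, so short reads from a gene and a copy can be hard to assign. For that reason the position that the table gives for a ribosomal protein SNP was compared below with the neighbours of the same gene in RefSeq.

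Reads over all SNPs totalled 2970824 to 5334585 per animal, and the ribosomal protein SNPs took 6.14% to 8.58% of them. In bulk tissue, fewer cells of a type and less RNA per cell cannot be told apart in such a share. One animal labelled female, RS929, was called heterozygous at 29.1% of X-linked SNPs, between the 2 males at 25.4% and 32.4%, and the results were recomputed without each animal in turn. Of the tissue's defining markers, ADIPOQ and PLIN1 (adipocytes) and UCP1 and CIDEA (brown adipocytes) had SNPs with reads in every animal, with medians of 13865 and 2364 reads and of 10773 and 473 reads. Markers of other cells were also read, such as COL1A1 of stroma with a median of 1520 reads and CDH5 of endothelium with 343, and their part in the results was not tested. In all, 7 of 12 adipocyte markers and 5 of 11 markers of other cells had a SNP in the table.

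Ribosomal protein SNPs were among the most deeply covered of the table. Their mean depth per animal ranged from 27.8 reads at RPS13 to 15129 reads at RPLP0, with a median of 4848 against 65.5 over all SNPs. Over 1000 reads were counted at 48 of the 59 SNPs and at 2.18% of all SNPs. Their consequences in the table were synonymous at 50 SNPs, synonymous in a splice region at 4, missense at 3 (RPS27A and RPL13A among them), 3' UTR at 1 and downstream at 1.

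AI was found at 38 of the 50 SNPs with a heterozygous animal, by the Poisson likelihood ratio test with Benjamini-Hochberg adjusted P under 0.05, compared with 38.0% of all SNPs tested. At an unadjusted P under 0.05 the numbers were 39 of 50 and 45.0%. Most of the imbalances were small. Reference shares lay at a median distance of 0.0343 from an equal share and those of all SNPs at 0.0339. Within 0.05 of equality were 34 of the 50 SNPs, and 15927 of the 24244 tested over all SNPs. Depth differed as well: among SNPs with over 1000 reads alone, AI was called at 31 of 40 ribosomal protein SNPs and at 80.8% of all such SNPs. When each animal was sampled to 50 reads, 13 of the 50 SNPs were called, against a background of 26.3%. The quasi-binomial F test, which takes the spread between animals into account, called 34 of 50 SNPs and 24.6% of all SNPs.

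Of the 38 SNPs with AI, 30 had more reads of the reference allele, near the 76.3% over all SNPs with AI. When the median reference share of all SNPs, 0.519, was taken as the equal share in place of 0.5, 42 of 50 SNPs were called, against 34.6% of all SNPs. The reference allele was then higher at 59.5% of those called, and at 54.9% over all SNPs. Of the 43 SNPs with at least 5 heterozygous animals, 34 had AI and at 28 of these every heterozygous animal leaned the same way. The same count was not made over all SNPs, whose depth was far lower, so no comparison can be drawn from it. Of the 50 SNPs, 5 were heterozygous in 1 animal only. A distance over 0.1 together with AI was seen at 12 of 50 SNPs, against 12.1% of all SNPs. Among SNPs with over 1000 reads, such a distance was seen at 8 of 40 ribosomal protein SNPs and at 7.83% of all SNPs.

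**Figure D1:**
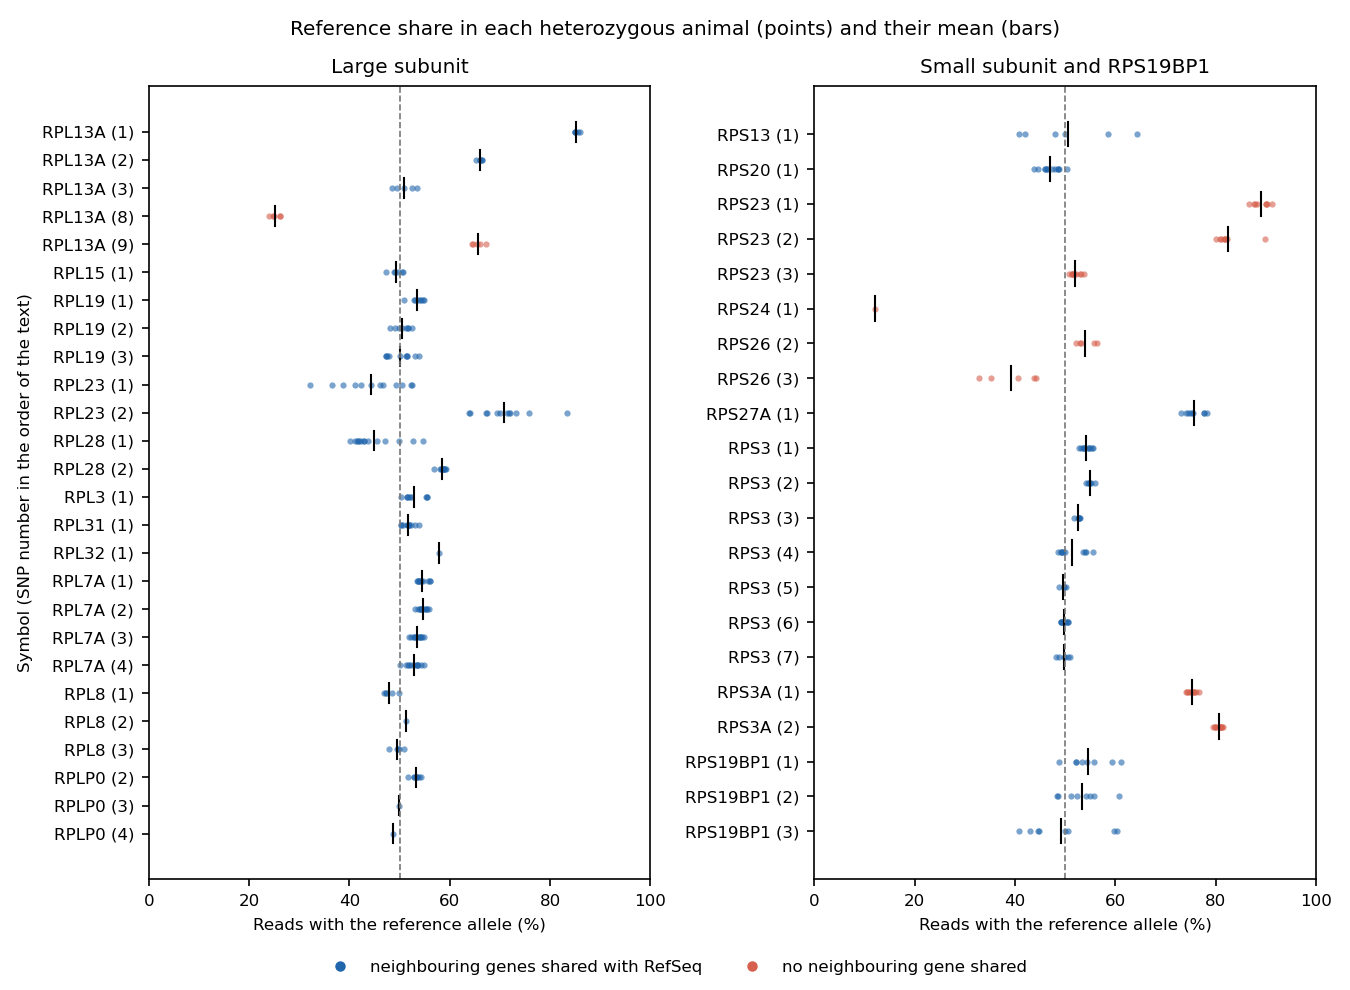
Percent of reads with the reference allele (x axis, 0 to 100) at 47 member SNPs with a heterozygous animal (y axis, numbered within a symbol), with 1 point per heterozygous animal, the mean as a bar and an equal share as a dashed line. Most SNPs lie close to 50%, and shares far from it, such as 89.0% at RPS23 (1), 80.6% at RPS3A (2) and 25.2% at RPL13A (8), are mostly at orange places, where no neighbouring gene is shared with RefSeq.

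Among the large subunit proteins, 26 of 33 SNPs could be tested and 19 had AI, 14 with the reference and 5 with the alternate allele higher. RPLP0, the scaffold of the ribosomal stalk, RPL19 and RPL31 had the deepest SNPs of this subunit, and their imbalances were among the smallest called. At RPLP0 (2) (chromosome 17, position 62189330; positions are on Oar v3.1 and SNPs are numbered within a symbol) the reference share in 8 animals was 51.7% at the lowest, 53.3% at the median and 54.2% at the highest. Its mean was 53.2% ± 0.742 (SD, n = 8) and every animal was above 50% (exact sign-flip permutation test, two-sided, p = 0.00781, the smallest that 8 animals allow). At RPL31 (chromosome 3, position 100400183) the 12 heterozygous animals ran from 50.2% to 53.9% with a median of 51.6%, all on the reference side by a narrow margin. The median reference share over all SNPs tested was 0.519, so RPL31 leaned no further than SNPs in general. RPL19 held SNPs with and without AI: RPL19 (1) at position 39271228 of chromosome 11 had a mean of 53.5% ± 1.31 (SD, n = 8), whereas RPL19 (3) at position 39272112 had 47.2% to 54.0% in 10 animals, with a mean of 50.1%.

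All 4 synonymous SNPs of RPL7A (chromosome 3, positions 2557599 to 2560025) had AI with the reference allele higher. Their means were between 52.8% ± 1.36 (SD, n = 12) and 54.6% ± 0.863 (SD, n = 11), and each of the animals called heterozygous at them, 11 or 12 per SNP, had a share above 50%. RPL7A (1) and (2) had the same genotype call in 18 of 18 animals, and RPL7A (3) and (4) had opposite homozygous calls, so that the reference allele of the third went with the alternate allele of the fourth. The 2 SNPs therefore leaned toward alleles that lie on different haplotypes, by 53.5% and 52.8%. Both shares were close to the median of 0.519 over all SNPs tested. RPL3, a protein of the peptidyl transferase centre, had 50.3% to 55.4% in 9 animals, all on the reference side. RPL8 (1) was the reverse, with 46.9% to 49.9% in 5 animals, and RPL15 had no AI, at 49.4% ± 1.26 (SD, n = 6).

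RPL23, which besides its place in the ribosome is known to bind MDM2, carried 2 SNPs 21 bases apart that leaned in opposite directions at low depth, with means of 66.4 and 96.3 reads. At RPL23 (2) (chromosome 11, position 39019268) the reference share was 63.9% at the lowest, 70.6% at the median and 83.3% at the highest, above 50% in 12 of 12 animals. At RPL23 (1) (position 39019247) it was 32.1%, 45.2% and 52.5%, and 3 of 12 animals were above 50%. AI at RPL23 (1) was not called by the quasi-binomial F test (adjusted P = 0.0781). Agreement of calls between SNPs is given as the number of animals with the same call, or with 0/0 and 1/1 exchanged if that is higher, over SNPs with more than 1 kind of call. The calls at RPL23 (2) agreed in 16 of 18 animals with the nearest-matching SNP of LASP1, its RefSeq neighbour. They matched in 18 of 18 at 1 of the 21601 SNPs on other chromosomes, in ADARB1.

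Among the small subunit proteins, 21 of 23 SNPs could be tested and 17 had AI, 14 with the reference and 3 with the alternate allele higher. AI with a distance over 0.1 was seen at 7 of the 21, compared with 5 of 26 in the large subunit. Over all SNPs it was seen at 12.1%. Of the 7, all but RPS27A stood at places where no neighbouring gene is shared with RefSeq, and RPS24 rested on 1 animal. In the large subunit, RPL13A (8) and (9) stood at such a place, and RPL13A (1), RPL13A (2) and RPL23 (2) did not. A difference between the subunits was not tested. RPS3, which sits at the mRNA entry site, held 7 SNPs within 2625 bases of chromosome 15 at 6132 to 7187 mean reads. Its SNPs (1) to (3) had mean shares of 54.2%, 54.9% and 52.6% with every heterozygous animal above 50%, and (5) to (7) had 49.6%, 49.8% and 49.7% with no AI. RPS3 (1), (4) and (6) had the same calls in 18 of 18 animals, as had RPS3 (2), (3) and (7). The same genotypes therefore gave different shares at different positions. Calls at RPS3 (1) equalled those at RPS3 (2) and (3) with the alleles exchanged in 14 of 18 animals. The lean at RPS3 (1) and the leans at RPS3 (2) and (3) were thus mostly toward alleles on different haplotypes. RPS20 leaned to the alternate allele, at 47.1% ± 1.89 (SD, n = 12), with 1 of 12 animals above 50%.

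RPS13, at 27.8 mean reads, spread from 40.9% to 64.3% over 6 animals, and AI was not called (likelihood ratio test, adjusted P = 0.928). At this depth a small imbalance could be missed. RPS19BP1, which is no ribosomal protein, had 2 of 3 SNPs with AI, and its means of 49.2% to 54.6% came with SDs of 4.01 to 7.44 over 8 animals at 81.5 to 258 mean reads.

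The 59 SNPs stood at 26 places in the table, since some symbols, such as RPL13A and RPS26, appeared on 2 chromosomes. For each place, the 5 nearest named genes on either side in the table were looked up in RefSeq, whose sheep assembly is a later one (ARS-UI_Ramb_v3.0), and counted as shared if they lay within 25 protein-coding genes of the same symbol. At 18 places, with 41 SNPs, at least 2 neighbours were shared. At the other 8 places, with 18 SNPs, none was shared. These included RPL12 on chromosome 14, RPL13A on 9, RPS23 on 3, RPS24 on 14, RPS26 on 2 and 3 and RPS3A on 3.

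The places with shared neighbours held most of the SNPs and few of the large imbalances. There, 28 of 40 tested SNPs had AI, 4 had a distance over 0.1 and the median distance was 0.0281. At the places with no shared neighbour, 10 of 10 tested SNPs had AI, 8 had a distance over 0.1 and the median distance was 0.250. Both counts include RPS24, where only 1 animal was heterozygous, at 12.2% reference reads beside 7.19% in the 17 animals called 1/1. The places with shared neighbours had the higher depth, with a median of 6301 against 2382 mean reads. The split was made after the values had been seen, so it carries no test.

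SNPs at which every animal was called homozygous for the alternate allele stood mostly at these places. No animal was heterozygous at 9 of the 59 SNPs, against 0.456% of all SNPs, and in each of the 9 all 18 animals were called 1/1, against 0.435% of all SNPs. Among them were RPL12 (1) and (2), RPL13A (4) to (7), RPS26 (1) and RPLP0 (1), of which RPLP0 (1) alone stood at a place with shared neighbours. Among SNPs with over 1000 reads, no animal was heterozygous at 8 of 48 ribosomal protein SNPs and at 3.58% of all. They had no AI value, and fewer than 5 animals were heterozygous at 16 of the 59, against 1.02% of all SNPs. None of the 59 was heterozygous in 15 or more animals, compared with 9.89% of all SNPs. The authors' filter set a limit of 10 reads per allele, which stray reads alone can pass at deep SNPs. RPL12 (1), for example, had 18 reference reads in RS917 and 13 in RS919, both called 1/1. The counts of SNPs with few or no heterozygous animals thus depend on depth and on entry into the table. Whether they reflect more than this was not tested.

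RPL13A, a large subunit protein also known for translational silencing of inflammatory mRNAs, had 3 SNPs on chromosome 14, where its neighbours were shared, and 6 on chromosome 9. On chromosome 14, RPL13A (1) (position 54973969) had reference shares of 84.9% in RS902, 84.9% in RS905, 85.9% in RS920, 85.5% in RS953 and 84.9% in RS969. The 5 animals were nearly equal, with a mean of 85.2% ± 0.486 (SD, n = 5). RPL13A (2), 292 bases away, had 66.1% ± 0.453 (SD, n = 5), and RPL13A (3), at 605 mean reads, had 51.0% ± 2.04 (SD, n = 5) and no AI. The animals that were heterozygous at one were heterozygous at all 3, and so the same haplotypes gave different shares at different positions. With 5 animals an exact sign-flip test cannot go below p = 0.0625, the value at RPL13A (1) and (2).

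On chromosome 9, RPL13A (8) (position 29612988) had 25.2% ± 0.926 (SD, n = 5) and RPL13A (9) (position 29613072) had 65.5% ± 1.09 (SD, n = 5), and the animals heterozygous at both were again RS902, RS905, RS920, RS953 and RS969. The calls at RPL13A (8) equalled those at the chromosome 14 SNPs in 18 of 18 animals, and those at RPL13A (9) did so with the alleles exchanged. Of the 22352 SNPs on other chromosomes, 4 matched RPL13A (8) in all animals: the 3 RPL13A SNPs on chromosome 14 and 1 SNP of ALDH16A1, which lies 2 genes from RPL13A in RefSeq. The best agreement with the 228 SNPs of genes near it on chromosome 9 was 14 of 18 animals.

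Depth moved in opposite directions at the 2 RPL13A places in the 5 heterozygous animals. Depth is given as reads at a position per 1000000 reads of the animal over all SNPs (RPM). At RPL13A (1) on chromosome 14 the heterozygous animals had 481 to 644 RPM and the 13 others 823 to 1159 RPM, without overlap. At RPL13A (8) on chromosome 9 they had 934 to 1186 RPM and the others 456 to 609 RPM, also without overlap. The same was seen at RPL13A (7), where all animals were called 1/1: the 5 animals had 922 to 1167 RPM and the others 453 to 602 RPM. At RPL13A (4), 304 bases from (8), the ranges overlapped, at 408 to 548 RPM and 372 to 543 RPM. Which copy the reads came from cannot be told apart with these counts, so the shares and depths of RPL13A are uncertain on both chromosomes.

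**Figure D2:**
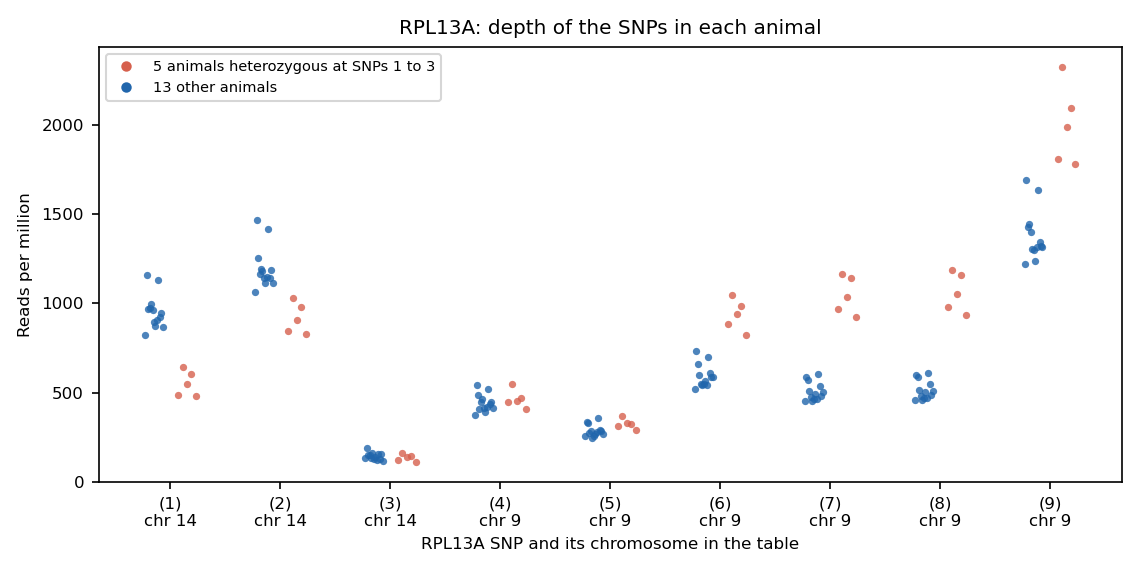
Depth in RPM (y axis) at each of the 9 RPL13A SNPs (x axis, with the chromosome the table gives), 1 point per animal. The 5 animals heterozygous at SNPs 1 to 3 (orange) are below the 13 others (blue) at SNPs 1 and 2 on chromosome 14 and above them at SNPs 6 to 9 on chromosome 9.

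RPS23, a small subunit protein at the decoding centre, showed the largest imbalance of all member SNPs. At RPS23 (1), the 3' UTR SNP (chromosome 3, position 43017625), the reference share in 8 animals was 86.7% at the lowest, 89.1% at the median and 91.2% at the highest, with a mean of 89.0% ± 1.60 (SD, n = 8; exact sign-flip permutation test, two-sided, p = 0.00781). RPS23 (2), 51 bases away with the same calls in 18 of 18 animals, had 82.4% ± 3.09 (SD, n = 8). RPS23 (3), at position 43017998, had 52.1% ± 0.965 (SD, n = 10). Its calls equalled those of RPS23 (1) and (2) with the alleles exchanged in 12 of 18 animals and without exchange in 6. Its reference allele thus went more often with their alternate alleles. The small lean of RPS23 (3) was toward the allele that goes with the lower one at RPS23 (1) and (2). It was close to the median reference share of 0.519 over all SNPs tested.

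Homozygous animals, whose reads do not enter the share, gave a measurement of these alleles in other animals. Both measures rest on the same alignment, so they are not independent of where reads were placed, which was not tested. At RPS23 (1) the 4 animals called 0/0 had 151 to 181 RPM, the 8 heterozygous animals 79.7 to 117 RPM and the 6 animals called 1/1 15.3 to 22.7 RPM. The 3 classes did not overlap. Depth in 1/1 was lower than in 0/0 by a log2 difference of -3.16 ± 0.14 (SE; moderated test with limma, adjusted P = 4.18e-08; exact permutation test over animals, p = 0.00476, the smallest possible). The log2 ratio of alternate to reference reads within heterozygous animals was -3.00. At RPS23 (2) the values were 549 to 609, 296 to 459 and 93.5 to 137 RPM, and log2 -2.31 ± 0.13 (SE, adjusted P = 4.73e-07) beside -2.24 within heterozygous animals. RPS23 (3) had 943 to 1268 RPM in 0/0 and 869 to 946 RPM in 1/1, and did not pass the test (log2 -0.22 ± 0.14, SE, adjusted P = 0.433). In the same animals grouped by their call at RPS23 (1), depth at RPS23 (3), 373 bases away, was 869 to 1037 RPM in 0/0 and 943 to 1064 RPM in 1/1, so the ranges overlapped there.

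**Figure D3:**
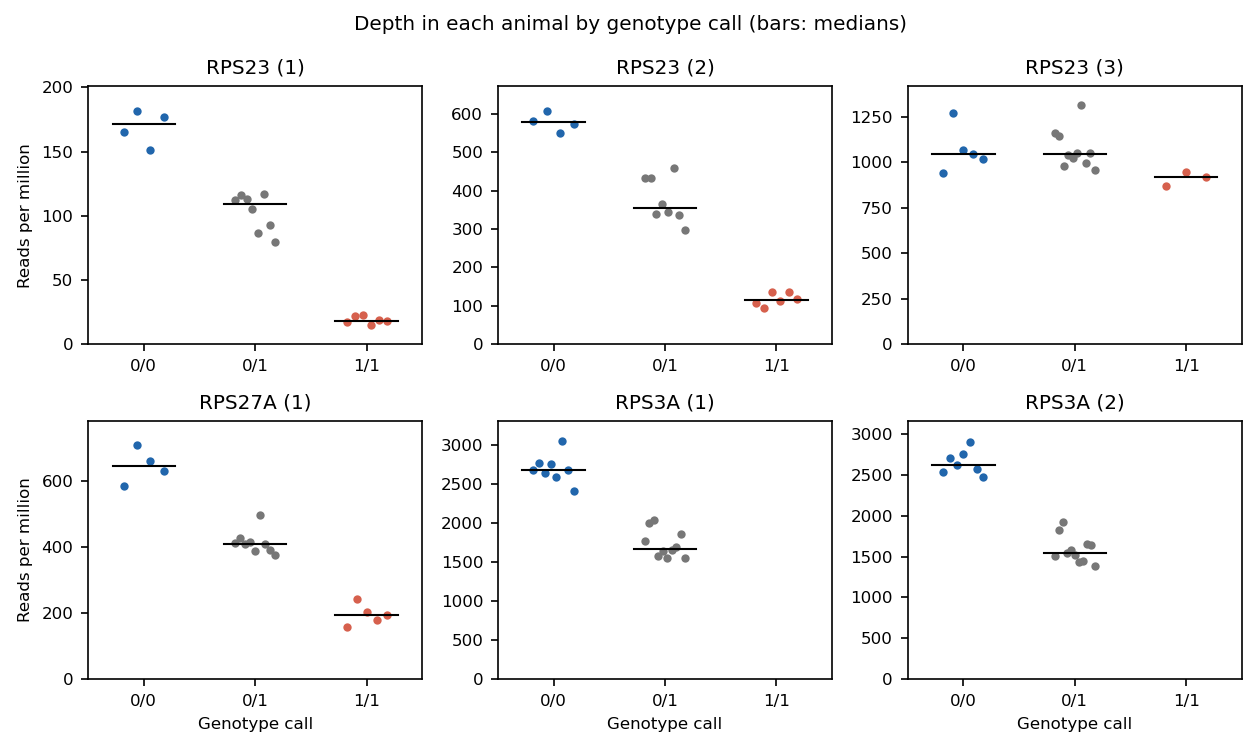
Depth in RPM (y axis, from 0) by genotype call (x axis) for 6 SNPs of RPS23, RPS27A and RPS3A, 1 point per animal with the class median as a bar. The classes are separate at RPS23 (1) and (2), at RPS27A and at both RPS3A SNPs, where no animal was called 1/1, and overlap at RPS23 (3).

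The genotype calls of RPS23 (1) and (2) followed a gene on another chromosome of the table. Of the 20432 SNPs on other chromosomes, 2 had calls that agreed in 18 of 18 animals, with the alleles exchanged, and both were in ATG10, which lies 3 genes from RPS23 in RefSeq and on chromosome 5 of the table. The best of 167 SNPs in genes near RPS23 on chromosome 3 agreed in 13 animals. The calls of RPS23 (3) matched no neighbour in more than 13 animals on either chromosome.

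RPS3A, at the mRNA exit side of the small subunit, had a similar pattern at high depth, with 9301 and 8646 mean reads. RPS3A (1) (chromosome 3, position 192371760) had 74.0% at the lowest, 75.2% at the median and 76.8% at the highest in 10 animals (permutation test of signs, two-sided, p = 0.00196). RPS3A (2), 318 bases away, had 79.5%, 80.8% and 81.4% in 11 animals (permutation test of signs, p = 0.00106). Every animal was far above 50%, with SDs of 0.849 and 0.629 percentage points. Calls at RPS3A (2) agreed in 18 of 18 animals, with the alleles exchanged, at 2 of the 20432 SNPs on other chromosomes. Both were in SH3D19, the gene next to RPS3A in RefSeq and on chromosome 17 of the table. Calls at RPS3A (1) were the same in 18 of 18 animals at 1 SNP, in ARHGAP10, which lies 8 genes from RPS3A. The best agreement with genes around position 192371760 on chromosome 3 was 13 animals for RPS3A (1) and 14 for RPS3A (2).

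RPS26, which lines the mRNA exit channel, appeared on chromosome 2 and on chromosome 3, and neither place shared a neighbour with RefSeq. RPS26 (2) (chromosome 2, position 52875680) and RPS26 (3) (chromosome 3, position 36864309) had equal calls in 18 of 18 animals, and each was the only SNP on another chromosome to match the other in all animals. Their shares lay on opposite sides, at 52.1% to 56.3% for RPS26 (2) and 32.8% to 44.1% for RPS26 (3) in the same 5 animals. The depths differed, with 1427 and 71.9 mean reads. At RPS26 (3) the 4 animals called 1/1 had 17.4 to 26.2 RPM and the 9 called 0/0 had 10.3 to 17.4 RPM, ranges that met without overlap, with a log2 difference of 0.64 ± 0.16 (SE; adjusted P = 0.0312 with limma) beside 0.60 within heterozygous animals. This call was lost without RS917 (adjusted P = 0.099) and without RS937 or RS919 (0.0856 and 0.0521).

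RPS24, a small subunit protein, had more reads of the uncalled allele than other members. A homozygous animal should have few reads of the other allele, and this share was over 1% at 3 of 59 SNPs, against 6.58% of all SNPs with homozygous animals of enough depth. At RPS24 (chromosome 14, position 35587286), the 17 animals called 1/1 had 7.19% reference reads (95% Wilson interval 6.35% to 8.14%), and the only heterozygous animal, RS926, had 12.2% reference reads of 172. At RPS23 (1) the animals called 1/1 had 3.16% (1.92% to 5.14%). The intervals cover counting error only. All 3 SNPs stood at places with no shared neighbour, and at the other 56 the share was at most 0.925%, at the missense SNP RPL13A (5).

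Between the homozygous classes, depth could be compared at 19 SNPs with at least 2 animals of each, and differed at 5 of them (limma, adjusted P under 0.05), against 4.88% of all SNPs compared. At an unadjusted P under 0.05 the numbers were 7 of 19 and 19.9%. Member SNPs were far deeper than all SNPs, with medians of 4848 and 65.5 mean reads, and no share at equal depth was counted. Beside RPS23 (1) and (2), which had the same calls, and RPS26 (3), the 5 were RPS27A and RPL28 (2), both at places with shared neighbours. RPS27A encodes the small subunit protein as a fusion with ubiquitin, and its SNP (chromosome 3, position 68706092) was missense. Its reference share was 73.2% at the lowest, 75.3% at the median and 78.2% at the highest over 9 heterozygous fetuses (p = 0.00391 by exact permutation of signs). The 4 animals called 0/0 had 584 to 711 RPM, the heterozygous animals 376 to 497 RPM and the 5 called 1/1 had 159 to 243 RPM, without overlap. The log2 difference was -1.73 ± 0.15 (SE, adjusted P = 4.13e-05 with limma), beside -1.63 within heterozygous animals. Its calls agreed in 18 of 18 animals with 1 SNP of MTIF2, the neighbouring gene.

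At RPL28 (2) (chromosome 14, position 59374188) the imbalance was smaller and its direction the same. The share ran from 56.8% to 59.2% with a median of 58.7% in 10 animals, all above 50%. Animals called 0/0 had 1066 to 1299 RPM and those called 1/1 had 687 to 809 RPM, a log2 difference of -0.63 ± 0.14 (SE; limma, adjusted P = 0.0300) beside -0.49 within heterozygous animals. The adjusted P rose to between 0.0514 and 0.0883 when RS917, RS943, RS947 or RS969 was left out. RPL7A (2) had a log2 difference of -0.45 ± 0.15 (SE) that did not pass (limma, adjusted P = 0.120), and RPL3 had -0.26 ± 0.14 (SE, adjusted P = 0.314).

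Across the 19 SNPs, the log2 difference between homozygotes and the log2 ratio within heterozygotes had the same sign at 16, against 69.8% of all SNPs compared, with Pearson's r = 0.993 and Spearman's rho = 0.858 as a description. Over all 6964 SNPs compared, r was 0.671 and rho 0.544. RPS23 (1), RPS23 (2) and RPS27A lay far from the other SNPs, at -3.00, -2.24 and -1.63 within heterozygotes, and weigh heavily on the r of 0.993. The points share libraries and, within a symbol, haplotypes, and the ribosomal protein SNPs were deeper than most, so the coefficients are not those of equal depth.

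**Figure D4:**
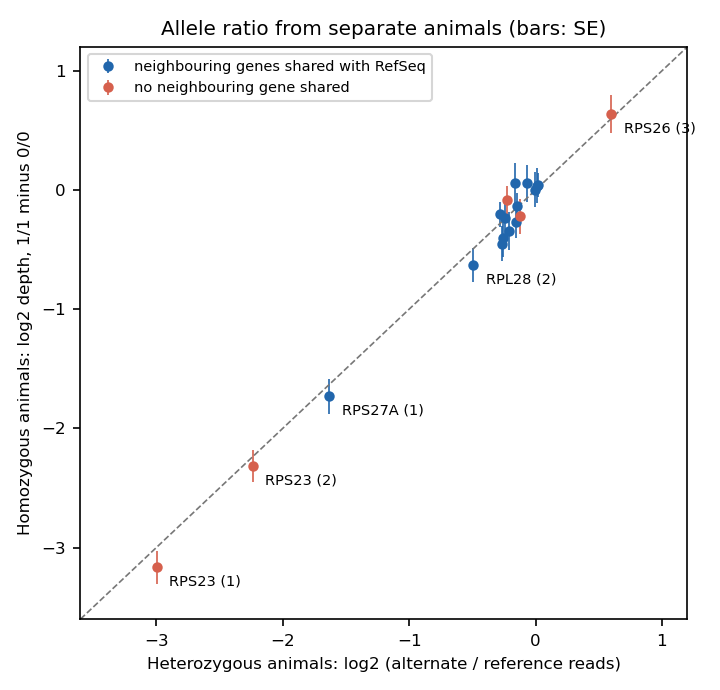
Log2 ratio of alternate to reference reads in heterozygous animals (x axis) against the log2 depth of 1/1 minus 0/0 animals (y axis, bars are SE) for the 19 SNPs with both, with equality as a dashed line. The 5 labelled SNPs differed in depth between homozygotes, and RPS23 (1), at -3.00 and -3.16, is the farthest from 0.

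Heterozygous animals were also compared with homozygous ones in depth, a comparison added after the data were seen. Depth differed at 10 of 45 SNPs (limma, adjusted P under 0.05), against 1.47% of all SNPs compared, most of them less deep. No share at equal depth was counted here either. The 10 were RPL13A (1), (2), (8) and (9), RPL23 (2), RPS23 (1) and (2), RPS27A and both RPS3A SNPs, of which 6 were at places with no shared neighbour. At RPS3A (1) the heterozygous animals had 1548 to 2043 RPM against 2409 to 3045 RPM in the 8 animals called 0/0. The ratio of mean depths was 0.642, and the reference share at this SNP gives 0.664 if each reference allele adds the same depth in every animal. At RPS3A (2) these values were 0.596 and 0.620, and at RPL13A (8) 2.07 and 1.98. Over the 45 SNPs the 2 values on the log2 scale had r = 0.956, as a description. Both values use reads of the heterozygous animals and the same alignment, and which copy the RPS3A reads came from was not tested. The calls at RPL23 (2), RPL13A (2) and RPS23 (2) were lost in 13, 4 and 3 of the 18 sets that left out 1 animal.

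The share differed between animals by more than counting error at 18 of 45 SNPs (Pearson chi-square, adjusted P under 0.05), against 15.4% of all SNPs. Dispersion, the chi-square over its degrees of freedom, had a median of 1.87, compared with 1.41 over all SNPs. When each animal was sampled to 50 reads, the chi-square test called 0 of 45, with 1 at an unadjusted P under 0.05, while 5.44% of all SNPs were called and 19.8% had an unadjusted P under 0.05. The 5 most dispersed SNPs were RPL28 (1) at 29.1, RPS3 (4) at 17.6, RPS23 (2) at 11.7, RPS20 at 9.75 and RPL3 at 9.36. The value of RPS23 (2) rested on RS917, at 89.9% where the other 7 animals had 80.0% to 82.2%, and was 0.615 without it.

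At RPL28 (1) and RPS3 (4) the animals separated by their genotype at another SNP of the same gene. RPL28 (1) (chromosome 14, position 59372053, in a splice region) had 40.1% to 45.5% in the 10 animals also heterozygous at RPL28 (2), 2135 bases away. It had 47.2% to 54.7% in the 4 animals called 0/0 there, without overlap. At RPS3 (4) (chromosome 15, position 52783233) the 6 animals heterozygous at RPS3 (3), 24 bases away, had 48.6% to 50.1%, and the 4 called 0/0 had 53.6% to 55.5%. Among 21 such pairs of SNPs, in RPL19, RPL23, RPL28, RPS23 and RPS3, the ranges were separate in RPL28 and at RPS3 (4) alone. Separate ranges were found in 5 of the pairs, and those of RPS3 (4) all rest on the same split of its animals. Groups were as small as 3 animals. No such count was made over all SNPs, so no comparison can be drawn from it. The pairs were looked at after the values had been seen and carry no test.

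**Figure D5:**
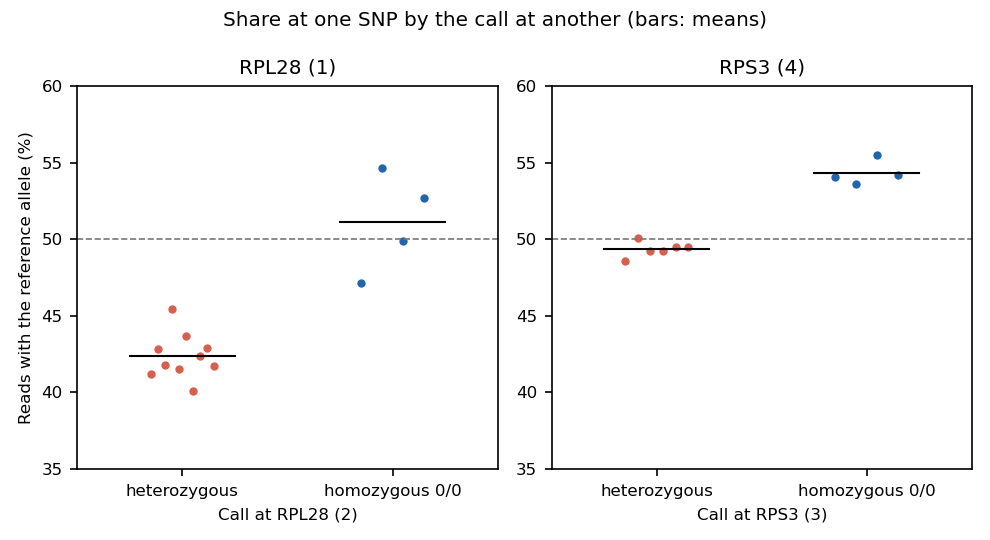
Percent of reads with the reference allele (y axis, 35 to 60) at RPL28 (1) and RPS3 (4) in heterozygous animals, split by the call at a neighbouring SNP of the same gene (x axis), 1 point per animal with the mean as a bar. The ranges do not overlap, at 40.1% to 45.5% against 47.2% to 54.7% for RPL28 (1) and 48.6% to 50.1% against 53.6% to 55.5% for RPS3 (4).

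Genes that assemble the ribosome were counted for comparison. Of 96 assembly factors and rRNA transcription genes, 65 had SNPs, and 83 of their 285 SNPs had AI, 65 with the reference and 18 with the alternate allele higher, at a median depth of 51.6 reads. This was 29.1% of their SNPs, against 38.0% of all SNPs. At 9 of them, or 3.16%, the distance was over 0.1, against 12.1% of all SNPs. The largest imbalance was in EMG1, a methyltransferase of the small subunit rRNA. Its 2 SNPs, at positions 207440139 and 207440141 of chromosome 3, had 72.9% and 72.8% reference reads at 38.1 and 37.6 mean reads. They lie so close that the same reads can count at both, so they are not separate measurements. Both were called heterozygous in 18 of 18 animals, and 15 or more were heterozygous at 9.89% of all SNPs. Whether reads of another copy entered was not tested. GTPBP4, a GTPase of large subunit assembly, had a missense SNP with 39.2% reference reads in 6 animals, and NAF1, needed for H/ACA particles, had 36.6% in 5.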

How the data were processed

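RNA from the PRAT of 18 fetuses was sequenced as paired end reads. The authors aligned them to Oar v3.1 with STAR, called SNPs and genotypes with GATK (3.4-46 in the submitters' processing notes) and deposited counts of reference and alternate reads per SNP and animal, without normalization, beside the genotype call (0/0, 0/1 or 1/1). The authors' filters on read number were not repeated, and 249 SNPs of the table had fewer than 5 heterozygous animals. The deposited columns of a test statistic, a P-value, the higher allele and the proportion of reference reads hold the authors' own results and were not used. The table column PS910 was taken as the sample labelled RS910. The members and gene lists were chosen with earlier results of these data known.

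AI was tested on reads summed over heterozygous animals (Poisson likelihood ratio, Benjamini-Hochberg over 24244 SNPs), with a quasi-binomial F test as an alternative. P-values for 1 SNP came from sign-flip permutation over animals, exact under 10 animals and with 100000 resamples otherwise. Depth was log2 of reads plus 0.5 per 1000000 reads of the animal, tested with variances moderated by limma 3.58.1 (R 4.3.3), with TMM from edgeR 4.0.16 as an alternative. Other-allele shares used homozygous animals with at least 20 reads. Over 153 pairs of libraries the chi-square per degree of freedom was at least 3.79, so no 2 libraries were alike within sampling noise. The tests were checked on simulated counts. Those for AI had binomial sampling around an equal share of 0.5 and no added spread between animals, so they do not show calibration on the real counts. Libraries were spread over sequencing lanes that the labels do not give. The SNPs named were those with the 15 largest distances, a depth difference, the 10 largest other-allele shares, the 10 deepest, the 5 most dispersed, all missense SNPs and all SNPs of symbols on more than 1 chromosome, and others are given by symbol. EMG1, GTPBP4 and NAF1, the pairs of SNPs and the sites agreeing with other genes were picked after their values were seen. RefSeq held all 23 symbols. Some member genes are counted in the totals but not reported here.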

Additional observations from a re-analysis of the deposited data

Results flagged for a closer look

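At 34 SNPs with 4 to 10 heterozygous animals, 3 had an animal farther from the others than Dixon's 95% critical value, where chance flags about 1 in 20. At RPL28 (2) on chromosome 14, position 59374188, RS905 had 56.8% reference reads of 5019, and the next lowest of the 10 animals had 58.0%. At RPS23 (2) on chromosome 3, position 43017676, RS917 had 89.9% of 1814 reads, and the next highest of 8 animals had 82.2%. At RPS3 (3) on chromosome 15, position 52783209, RS917 had 51.7% of 8107 reads, and the next lowest of 6 animals had 52.6%. RS917 was also the animal with the most reads, 5334585 in all.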

How the results depend on the processing

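Counts of SNPs stayed within 1.5 times their value under most alternatives. AI was called at 36 to 39 SNPs when 1 animal was left out, at 38 without the 2 males, at 31 with at least 30 reads of each allele (background 48.3%), at 36 without SNPs with other-allele reads over 1% and at 36 without RPS19BP1. Sampling to 50 reads moved it to 13 (background 26.3%) and the number of SNPs with shares that differed between animals (15 to 18 with 1 animal left out) to 0. Other-allele reads passed 0.5% at 8 SNPs, a limit not counted over all SNPs, and the 3 over 1% were also 3 with any 1 animal left out. The depth difference between homozygotes held at 3 to 5 SNPs with 1 animal left out (3 without RS917), and at 2 when only places with shared neighbours were kept. The difference between heterozygous and homozygous animals held at 7 to 10, at 8 with TMM and at 4 at places with shared neighbours. For single SNPs, no direction reversed, and RPS3 (2) and RPS3 (3) fell short of 0.05 when an animal was left out, since 5 animals cannot go below 0.0625. No paired analysis was possible because there is 1 group of animals. SNPs with fewer than 5 heterozygous animals, or under 100 reads such as RPS13, limit what could be detected.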
